A study of Homo sapiens with 9 samples.

Results

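Aminoacyl-tRNA synthetases are the enzymes that join each amino acid to its transfer RNA. Their mRNAs were followed here in PaTu 8988t, a human cell line derived from a pancreatic tumour, over 9 libraries of RNA sequencing. The members were the protein-coding genes whose deposited name follows the synthetase pattern (a 1-letter amino acid code and ARS, with or without a final 1 or 2, and EPRS, FARSA and FARSB). Of 58735 deposited genes, 19951 of them protein coding, 37 fitted: 20 of the cytosolic class and 17 of the mitochondrial class, whose names end in 2. The series title names collagen aligned by CPXM2, a secreted carboxypeptidase-like protein, and its effect on gene expression and signalling in these cells. In 3 libraries the cells met matrix from wild-type CPXM2 overexpression (WT), in 3 matrix from overexpression of the CPXM2 mutant R213A, and in 3 a control matrix, as far as the labels "CPXM2WT OE ECM", "CPXM2R213A OE ECM" and "Ctrl ECM" say. All groups share the same line and a medium of DMEM with 10% FBS and antibiotics. The cells that laid down the matrix, the time on it and whether replicates were separate cultures are not stated in the labels. Values are FPKM, fragments per kilobase of gene scaled to a size of each library, deposited by the authors in 2 tables. That size was not the plain sum of the recovered reads, as given below. The 4-library table holds WT 1, R213A 1, R213A 3 and control 1. The 5-library table holds WT 2, WT 3, R213A 2, control 2 and control 3.

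Cytosolic synthetases charge the transfer RNAs that ribosomes of the cytosol use, and the mitochondrial class, made in the cytosol and imported, serves translation of the few proteins encoded in mitochondria. Class I and class II synthetases have different catalytic folds. In animal cells a set of them, among others EPRS1 (for both glutamate and proline), IARS1, LARS1, QARS1, MARS1, KARS1 and RARS1, sits with 3 scaffold proteins in the multisynthetase complex. GARS1 and KARS1 encode both a cytosolic and a mitochondrial form, so the split by name is not a strict split by compartment. When a cell lacks amino acids, uncharged transfer RNA activates the kinase GCN2 (gene EIF2AK4). Translation of the transcription factor ATF4 then rises, and ATF4 turns on many cytosolic synthetase genes together with amino acid transporters and biosynthetic enzymes. Stress of the endoplasmic reticulum reaches ATF4 through another kinase, PERK. Of the cytosolic members, 12 are reported as ATF4 targets in mammalian cells: AARS1, CARS1, EPRS1, GARS1, IARS1, LARS1, MARS1, NARS1, SARS1, TARS1, WARS1 and YARS1.

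ATF4 binds, with a partner of the C/EBP family, a composite element whose core was searched here as TGATGNAA on both strands. The windows were RefSeq promoters of build GRCh38.p14, from 250 bases before to 50 bases after each gene's start, and 30 of the 37 members had one. The core was found in 7 of 16 cytosolic members (43.8%), in 1 of 14 mitochondrial members (YARS2, 7.14%) and in 1217 of 27305 genes in all (4.46%). With the stricter letters TGATGCAA the counts were 6 of 16 cytosolic members, 0 of 14 mitochondrial members and 1.08% of all genes. A match is a description of these letters and not a bound site. The windows of AARS1 (chr16:70289457-70289756, minus strand), CARS1 (chr11:3057374-3057673, minus strand), GARS1 (chr7:30594628-30594927, plus strand) and MARS1 (chr12:57487818-57488117, plus strand) belong to genes that stood more than 2-fold higher in WT 1 than in control 1. The window of NARS1 (chr18:57621787-57622086, minus strand) holds the same core in a gene with a small difference. They are printed along the gene's strand, 5′ to 3′, with the matched bases in capitals.
AARS1: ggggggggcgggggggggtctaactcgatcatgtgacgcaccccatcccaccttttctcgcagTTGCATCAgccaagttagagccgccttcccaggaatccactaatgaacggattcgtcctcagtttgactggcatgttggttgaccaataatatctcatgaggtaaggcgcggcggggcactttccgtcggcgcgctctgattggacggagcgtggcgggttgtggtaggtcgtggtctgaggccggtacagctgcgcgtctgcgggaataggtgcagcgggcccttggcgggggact
CARS1: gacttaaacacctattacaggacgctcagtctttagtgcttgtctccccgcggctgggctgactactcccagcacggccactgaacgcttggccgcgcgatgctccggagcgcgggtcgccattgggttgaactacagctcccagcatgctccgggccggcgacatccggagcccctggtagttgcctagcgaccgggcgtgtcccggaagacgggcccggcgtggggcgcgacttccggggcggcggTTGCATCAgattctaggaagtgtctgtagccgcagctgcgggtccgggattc
GARS1: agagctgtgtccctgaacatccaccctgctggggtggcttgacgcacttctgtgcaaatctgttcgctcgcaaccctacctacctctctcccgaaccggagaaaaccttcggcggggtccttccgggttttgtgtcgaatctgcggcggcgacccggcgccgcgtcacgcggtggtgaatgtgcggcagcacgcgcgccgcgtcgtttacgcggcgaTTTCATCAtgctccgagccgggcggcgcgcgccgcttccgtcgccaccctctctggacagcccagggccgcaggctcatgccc
MARS1: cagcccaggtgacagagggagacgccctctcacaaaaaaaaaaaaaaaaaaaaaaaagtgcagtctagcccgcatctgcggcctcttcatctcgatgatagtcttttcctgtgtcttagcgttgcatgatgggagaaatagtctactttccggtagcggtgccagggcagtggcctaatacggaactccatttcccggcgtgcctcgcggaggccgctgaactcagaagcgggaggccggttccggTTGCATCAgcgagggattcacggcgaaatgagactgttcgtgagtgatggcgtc
NARS1: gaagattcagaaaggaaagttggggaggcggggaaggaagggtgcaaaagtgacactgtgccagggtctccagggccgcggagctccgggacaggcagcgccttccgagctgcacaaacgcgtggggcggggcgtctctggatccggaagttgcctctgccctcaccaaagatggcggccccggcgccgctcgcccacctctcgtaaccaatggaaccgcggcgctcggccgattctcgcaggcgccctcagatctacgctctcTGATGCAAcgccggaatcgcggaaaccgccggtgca
The capitals begin 187 bases before the start in AARS1, 33 before it in GARS1, 4 before it in MARS1 and 2 before it in CARS1, and 15 bases into the transcribed part in NARS1. The core reads on the gene's own strand in NARS1 and on the opposite strand in the other 4. TARS1 and IARS1 also held it, and their FPKM in WT 1 was only 1.14 and 1.25 times that in control 1. The windows of WARS1 and SARS1 held no match to these letters.

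Whole reads recovered from FPKM numbered 18203911 to 18312806 per library for WT, 15951927 to 18129181 for R213A and 17160420 to 18211216 for control. The members took 0.508% to 0.769% of the reads. The library size that FPKM implies was 0.850 times these reads in R213A 1, 0.902 times in control 2 and 1.09 times in control 1. It was 1.01 to 1.06 times the reads in the other libraries. R213A 1 had the lowest share of reads and control 1 had 0.570%, while their cytosolic sums were 1029 and 825 FPKM. FPKM also divides by gene length. All 37 passed the filter of a mean of at least 1 FPKM that 11193 genes passed. The lowest read count of a member in any library was 51, for SARS2, where counting error alone is 14.0%. The keratins KRT8 and KRT18 were at means of 153 and 348 FPKM and the mesenchymal gene VIM at 138 FPKM, but KRT7, KRT19 and CDH1, which many ductal tumour lines express, were at 0.229, 0.0217 and 0.0736 FPKM. EPCAM, also epithelial, averaged 4.57 FPKM. The sum of the 6 epithelial markers was 344 to 499 FPKM in WT, 341 to 950 in R213A and 351 to 728 in control. Of 8 fibroblast, 5 immune and 3 endothelial markers 0 reached a mean of 1 FPKM. The fibroblast sum was 0.0725 to 0.852 FPKM in WT, 0.0548 to 0.808 in R213A and 0.0651 to 0.905 in control, with FAP at 0 in all 9 libraries. FPKM measures a relative amount in the RNA of many cells, so fewer cells in a given state and less RNA per cell cannot be told apart.

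Cytosolic synthetase mRNAs were together more abundant than those of the mitochondrial class in every library. The summed level of the 20 cytosolic genes was 1223, 934 and 960 FPKM in WT 1 to 3, 1029, 942 and 1197 FPKM in R213A 1 to 3, and 825, 1102 and 927 FPKM in control 1 to 3. Divided by the mitochondrial sum this gave 7.13, 4.96 and 4.93 in WT, 5.49, 4.98 and 6.21 in R213A, and 3.91, 5.22 and 4.92 in control. Control 1 had the lowest ratio and WT 1 the highest, and the 4 libraries WT 2, WT 3, R213A 2 and control 3 lay close together.

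TARS1, the threonine enzyme, had the highest mean of the cytosolic class. Its level was 117, 144 and 146 FPKM in WT 1 to 3, 76.4, 147 and 117 FPKM in R213A 1 to 3, and 102, 168 and 137 FPKM in control 1 to 3, and the 3 groups overlapped. AARS1, the alanine enzyme, was next with a mean of 78.6 FPKM, followed by SARS1 for serine (76.8 FPKM) and IARS1 for isoleucine (76.7 FPKM), which do not differ beyond their spread. HARS1, for histidine, was the lowest cytosolic gene, at 15.6, 12.4 and 13.2 FPKM in WT, 23.5, 13.3 and 17.6 in R213A, and 17.9, 10.8 and 13.5 in control. CARS1, for cysteine, was next lowest with a mean of 16.3 FPKM.

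IARS2, for mitochondrial isoleucine, had the highest mean of the mitochondrial class, at 60.0 FPKM. It was at 31.0, 72.0 and 71.7 FPKM in WT 1 to 3, 34.7, 71.3 and 47.0 in R213A 1 to 3, and 61.2, 78.3 and 72.8 in control 1 to 3. The lower values are those of WT 1, R213A 1 and R213A 3, all from the 4-library table, where control 1 did not share them. In WT 1 and R213A 1 it lay beside YARS2. YARS2, for mitochondrial tyrosine, followed at 30.5, 28.5 and 30.1 FPKM in WT, 36.7, 27.8 and 32.8 in R213A, and 35.4, 27.3 and 26.6 in control. The lowest were SARS2, at 0.977, 1.12 and 1.00 FPKM in WT, 1.28, 0.921 and 1.08 in R213A, and 1.49, 1.55 and 0.881 in control, and PARS2, with a mean of 1.79 FPKM. Except for IARS2, YARS2 and RARS2 (mean 20.5 FPKM), the mitochondrial members had means of 10.8 FPKM or less.

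Pairs of enzymes for the same amino acid differed widely in this balance. The ratio of mean FPKM was 67.2 for SARS1 over SARS2, 16.8 for FARSA, the catalytic chain of the cytosolic phenylalanine enzyme, over FARS2, and 14.2 for TARS1 over TARS2. It was 1.28 for IARS1 over IARS2 and 1.04 for YARS1 over YARS2. The ratio of MARS1 over MARS2, the methionine pair, was 34.0, 8.58 and 8.35 in WT 1 to 3, 29.6, 7.57 and 24.0 in R213A 1 to 3, and 6.54, 9.42 and 7.30 in control 1 to 3. WT 1, R213A 1 and R213A 3 stood apart from the other 6 libraries in this pair.

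**Figure D1:**
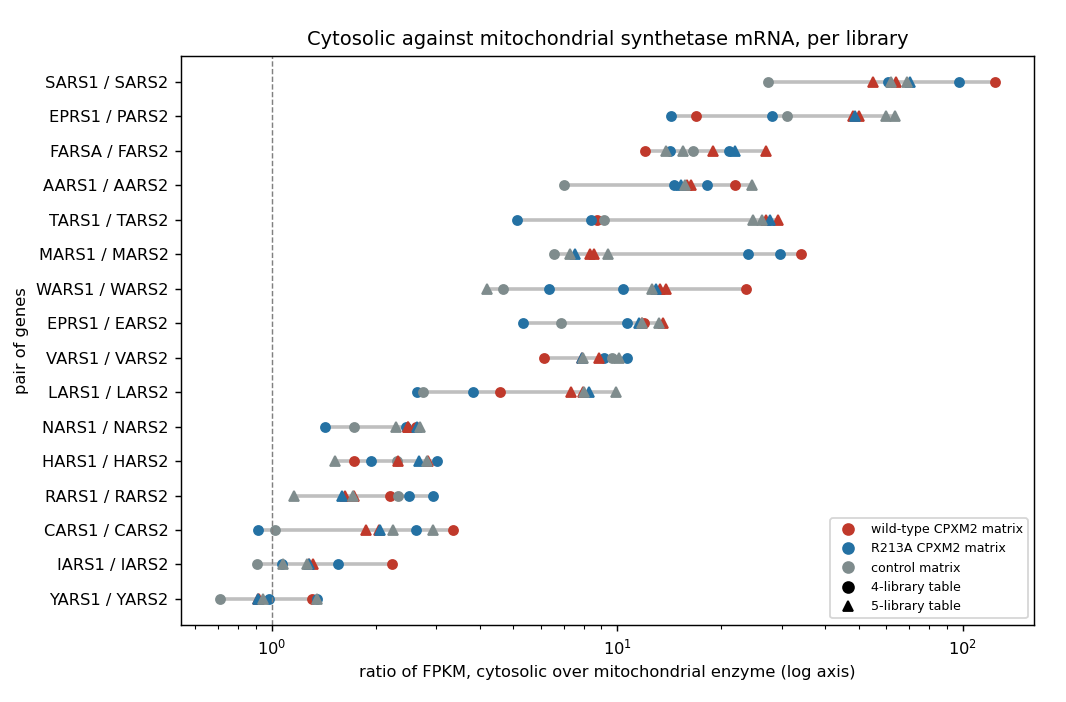
Ratio of FPKM of the cytosolic gene over the mitochondrial gene for the same amino acid (log axis), one point per library, with circles for the 4-library table and triangles for the 5-library table. SARS1 over SARS2 is the most uneven pair, with ratios of 27.4 to 124, and YARS1 over YARS2 lies between 0.709 and 1.36.

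WT against control matrix asks what CPXM2 in the matrix did to these genes. In the 4-library table, several cytosolic synthetases stood higher in WT 1 than in control 1, led by WARS1, SARS1 and CARS1, and of the mitochondrial members 0 differed 2-fold on the log2(FPKM + 1) scale, although MARS2 in WT 1 was at 0.454 times its FPKM in control 1. In the 5-library table the groups lay close together. Pooled over both tables, 0 of 37 members passed an adjusted p of 0.05.

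WARS1, the tryptophan enzyme, which interferons also induce in many cells (ENSG00000140105, hg38 chromosome 14, 100333788 to 100376805, minus strand), showed the largest difference. It was at 85.5, 36.0 and 38.8 FPKM in WT 1 to 3 and at 16.5, 23.4 and 36.8 FPKM in control 1 to 3. WT 1 was the highest and control 1 the lowest, and the groups overlapped, since control 3 lay above WT 2. The means were 53.4 ± 27.8 FPKM in WT and 25.6 ± 10.3 FPKM in control (SD, n = 3 each). The pooled difference was 0.99 ± 0.40 on the log2(FPKM + 1) scale (SE, limma adjusted p = 0.757, unadjusted p = 0.034), with a 95% interval of 0.09 to 1.89. WARS1 was the 1 member of 37 under an unadjusted p of 0.05, against a background of 4.49% of all genes, or 2.25% in the higher direction, and 0.0% of the 11193 genes passed the adjusted threshold. Leaving out each library in turn moved its difference between 0.43 and 1.32.

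The seryl enzyme gene SARS1 (ENSG00000031698, chromosome 1, 109213918 to 109238169, plus strand) was at 121, 61.6 and 64.0 FPKM in WT 1 to 3 and at 40.7, 96.0 and 60.7 FPKM in control 1 to 3. CARS1, the cysteine enzyme (ENSG00000110619, chromosome 11, 3000922 to 3057613, minus strand), was at 29, 12.7 and 13.3 FPKM in WT and 10.1, 13.8 and 12.7 FPKM in control. In both, WT 1 was the highest library and control 1 the lowest, and the other 4 libraries overlapped. The dual-compartment glycine enzyme GARS1 (ENSG00000106105, chromosome 7, 30594681 to 30634033, plus strand) was at 97.7, 73.2 and 76.0 FPKM in WT and 40.9, 67.2 and 72.6 FPKM in control. Its 3 WT values all lay above its 3 control values, by a small margin in the 5-library table.

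MARS1, the methionine enzyme, which also charges the initiator transfer RNA (ENSG00000166986, chromosome 12, 57475445 to 57517569, plus strand), was at 86.9, 37.9 and 40.7 FPKM in WT and 36.8, 43.1 and 39.3 FPKM in control. WT 1 alone stood apart. Its annotated span shares 982 bases with the stress gene DDIT3 on the opposite strand, which was at 138, 27 and 31.8 FPKM in WT and 6.08, 67.0 and 27.5 FPKM in control, and since the strand setting of the counting is not given, the part of DDIT3 reads in MARS1 was not tested. AARS1 (ENSG00000090861, chromosome 16, 70252295 to 70289543, minus strand) was at 124, 49.1 and 49.3 FPKM in WT and 59.1, 131 and 50.8 FPKM in control. Here control 2 was as high as WT 1, so the difference was 1.06 in the 4-library but -0.72 in the 5-library table.

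**Figure D2:**
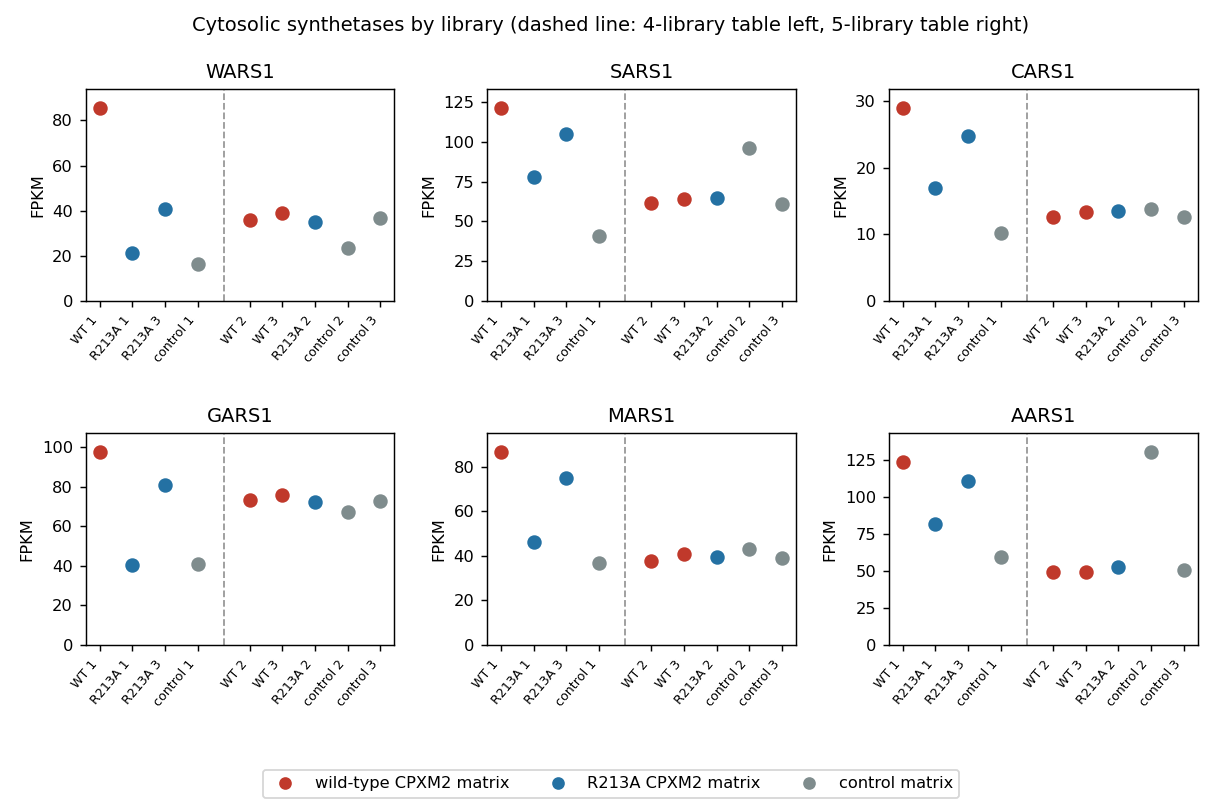
FPKM per library (linear axes from 0) of the 6 cytosolic synthetase genes with the largest difference between WT 1 and control 1, with the 4-library table left of the dashed line. WT 1 is above control 1 in each panel, while right of the line the libraries lie close together except control 2, which is high for AARS1 (131 FPKM) and SARS1 (96.0 FPKM) and low for WARS1 (23.4 FPKM).

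As a group, 16 of 20 cytosolic members stood higher in WT 1 than in control 1, with a median log2 difference of 0.20, against 46.0% of all genes and a median of -0.07. After the correction for gene length and GC content the cytosolic median was 0.47, and after quantile normalization it was 0.18. Quantile normalization put KARS1 and TARS1 below 0 and FARSB above it. The correction for gene length and GC content put FARSA and VARS1 below 0 and FARSB and HARS1 above it. As deposited, the 6 genes described before were at least 2-fold higher and 0 were 2-fold lower, where the backgrounds were 7.79% and 8.84% of all genes. The 6 differences were 2.30 for WARS1, 1.55 for SARS1, 1.43 for CARS1, 1.24 for GARS1, 1.22 for MARS1 and 1.06 for AARS1, the last of which was 0.87 after quantile normalization and 0.98 after gene length and GC content were corrected for. With 1 library per group in this table, these differences have no replicate check. Epithelial and mesenchymal markers also differed between these libraries: WT 1 minus control 1 was 1.38 for VIM, 1.19 for EPCAM, 0.77 for KRT18 and -0.05 for KRT8, and their part in the synthetase values was not tested.

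The 6 differences of at least 2-fold all lay among the reported ATF4 targets. Of these 12 genes 12 were above 0, with a median of 0.85 (11 with a median of 0.74 after quantile normalization, where TARS1 was at -0.06). Among the other 8 genes 4 were above 0, with a median of 0.02. YARS1, the tyrosine enzyme, was at 0.65, while EPRS1, NARS1 and TARS1 were at 0.06, 0.13 and 0.19. The 8 complex members had a median of 0.14 and 6 above 0, and the 12 cytosolic genes outside the complex had a median of 0.42 and 10 above 0. All 20 values share the same 2 libraries, in which 46.0% of all genes were above 0. The lists of reported ATF4 targets and complex members were chosen with earlier results of these data known.

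In the mitochondrial class 7 of 17 members were above 0 in the same libraries, near the 46.0% of all genes, with a median of -0.21. IARS2 was at -0.96 and MARS2, for mitochondrial methionine, at -0.90, and in FPKM the order was reversed, with WT 1 over control 1 at 0.506 for IARS2 and 0.454 for MARS2. EARS2 and AARS2 were at -0.61 and -0.50. VARS2 and PARS2 were the highest, at 0.70 and 0.64. Of 17 pairs for the same amino acid, the difference of the cytosolic partner exceeded that of its mitochondrial partner in 10 and was below it in 7. EPRS1 entered this count with both EARS2 and PARS2, so the pairs are not all separate genes. The excess on the log2 scale was 2.28 for tryptophan, 2.12 for methionine and 1.88 for serine, and at the other end it was -0.58 for valine and for EPRS1 over PARS2.

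**Figure D3:**
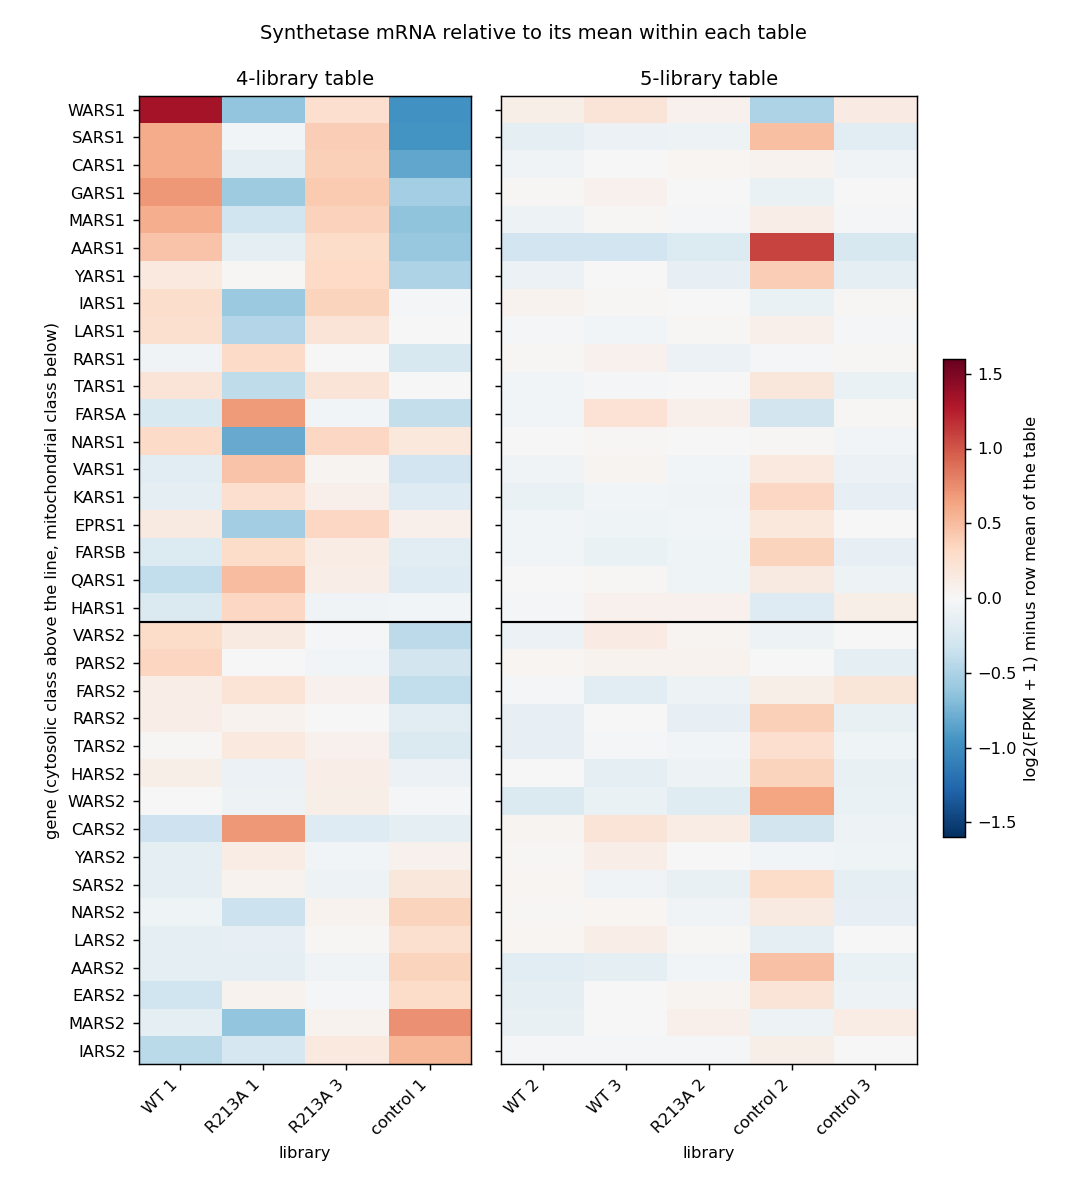
Each row is 1 of 35 synthetase genes and each column a library, coloured by log2(FPKM + 1) minus the mean of the row within its table, so that levels are not compared across tables. The top cytosolic rows are red in WT 1 and blue in control 1, most strongly for WARS1, and the 5-library table is pale apart from control 2.

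Within the 5-library table, 0 of 37 members differed 2-fold between WT and control, where 0.205% of all genes were higher and 0.152% lower by that much. The cytosolic median was -0.03 and the mitochondrial median -0.08, and without control 2 they were 0.04 and 0.02. SARS1 was at -0.28 and CARS1 at -0.02 there, beside 1.55 and 1.43 in the 4-library table. The pooled medians were 0.05 for the cytosolic and -0.07 for the mitochondrial class, against -0.03 over all genes. Of the cytosolic members 13 of 20 and of the mitochondrial members 5 of 17 lay above 0 in the pooled fit, against 46.3% of all genes.

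After WARS1 the smallest unadjusted p-values belonged to AARS2, EARS2, PARS2 and CARS1, all with a limma adjusted p of 0.757. AARS2, which charges mitochondrial alanine transfer RNA, was at 5.66, 3.00 and 3.09 FPKM in WT and 8.40, 5.31 and 3.23 FPKM in control. Its pooled difference was -0.40 ± 0.18 (SE), and within each table the WT values lay below the control values. EARS2, for mitochondrial glutamate, was at 4.26, 5.62 and 6.37 FPKM in WT and 7.05, 7.49 and 5.95 FPKM in control, a difference of -0.30 ± 0.17, and its R213A values of 5.81, 6.57 and 5.42 FPKM lay in the same range. PARS2 was at 3.00, 1.52 and 1.56 FPKM in WT and 1.57, 1.48 and 1.24 FPKM in control, a difference of 0.29 ± 0.17, from as few as 52 reads in a library, with 2.17, 1.56 and 2.06 FPKM in R213A. Across the tables the groups overlapped in all 3 genes. The median 95% interval over the members reached 0.49 to either side on the log2 scale.

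R213A against control asks the same of the mutant protein, and it shares the control libraries with the first comparison. In R213A 3, 18 of 20 cytosolic members stood above control 1 (47.2% of all genes did), with SARS1, WARS1 and CARS1 the furthest. In R213A 1, 13 of 20 did (47.5% of all genes), with FARSA and SARS1 the furthest above, and MARS2 and NARS1 lay well below. In the 5-library table R213A 2 lay close to control 3. Again 0 of 37 members passed, with 0 under an unadjusted p of 0.05, against 0.0% and 3.05% of all genes.

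SARS1 was at 77.6, 64.6 and 105 FPKM in R213A 1 to 3, beside the control values of 40.7, 96.0 and 60.7 FPKM. Its difference in the 4-library table, 1.13, was the highest of the 37 members and the 1 that was at least 2-fold higher, where 5.22% of all genes did, and in the 5-library table it was -0.24. CARS1 was at 16.9, 13.5 and 24.8 FPKM in R213A and 10.1, 13.8 and 12.7 FPKM in control, with differences of 0.95 and 0.03 in the tables. R213A 1 and R213A 3 were both above control 1 for these genes, and R213A 2 lay within the range of control 2 and 3 for CARS1. GARS1 was at 40.3, 72.5 and 81.1 FPKM in R213A 1 to 3, so that R213A 1 matched control 1 (40.9 FPKM) and R213A 3 did not. MARS1 was at 46.2, 39.3 and 75.1 FPKM and AARS1 at 81.5, 52.4 and 111 FPKM in the same libraries, with R213A 3 the highest of its group in both.

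MARS2, for mitochondrial methionine, was at 1.56, 5.19 and 3.13 FPKM in R213A and 5.62, 4.58 and 5.38 FPKM in control. R213A 1 was the lowest library and R213A 3 the next lowest of its group, while R213A 2 lay within the control range. On wild-type matrix MARS2 was at 2.55, 4.42 and 4.88 FPKM, low in WT 1 as well. The pooled difference was -0.45 ± 0.27 (SE, limma adjusted p = 0.690). It was -0.03 without control 1, -0.23 without R213A 1 and -0.75 without R213A 2.

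FARSA had the smallest unadjusted p of the members in this comparison. It was at 127, 32.3 and 75.9 FPKM in R213A 1 to 3 and 59.9, 24.7 and 30.9 FPKM in control 1 to 3, a pooled difference of 0.50 ± 0.25 (SE, limma adjusted p = 0.690). The difference was 0.21 after the correction for gene length and GC content, 0.30 after quantile normalization and 0.28 without R213A 1. Its partner chain FARSB was at 35.2, 12 and 31.1 FPKM in R213A and 25.1, 16.3 and 11.4 FPKM in control. Within each table the R213A values of FARSA were above those of control. AARS2 differed by -0.34 ± 0.19, with 5.57, 3.42 and 6.10 FPKM in R213A beside 8.40, 5.31 and 3.23 in control. CARS2 differed by 0.41 ± 0.25, with 18.5, 6.56 and 9.50 FPKM in R213A beside 9.88, 4.70 and 5.62 in control. CARS2, at 8.63, 6.21 and 7.06 FPKM in WT 1 to 3, reached its highest level in R213A 1, and both genes had overlapping groups.

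Of the cytosolic members 14 of 20 were above 0 in the mean of R213A 1 and 3 minus control 1, with a median of 0.45, against 47.8% and -0.04 over all genes. The mitochondrial class had 8 of 17 above 0 and a median of -0.03, with MARS2 at -1.02. The 2 R213A libraries were unlike each other in the reported ATF4 targets: R213A 3 had 12 of 12 above 0 with a median of 0.85, and R213A 1 had 6 of 12 with a median of 0.15. Of the other 8 cytosolic genes, 6 were above 0 in R213A 3, with a median of 0.29. In R213A 1, 7 of these 8 were above 0, with a median of 0.52, so there the targets were not the higher set. In R213A 3 the genes at least 2-fold higher were SARS1, WARS1, CARS1 and MARS1 (4 of 20, against 2.0% of all genes), and in R213A 1 it was FARSA alone (1.07, against 12.8% of all genes). FARSA had 4182 of 15951927 reads in R213A 1 and 2735 of 17160420 in control 1. Its difference by share of reads was not formed. NARS1, EPRS1 and IARS1 were at -0.98, -0.64 and -0.56 in R213A 1 and at 0.16, 0.25 and 0.39 in R213A 3. Against control 1 the markers KRT18, KRT8, VIM and EPCAM were at 1.61, 1.12, 0.69 and -0.22 in R213A 1 and at 1.03, 0.44, 1.11 and 0.70 in R213A 3, and their part was not tested.

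The GC content of the transcript moved with these differences. Across the members, Spearman's rho between GC content and the mean of R213A 1 and 3 minus control 1 was 0.48 (n = 37 genes), and across the cytosolic members 0.74 (n = 20 genes). Over 11188 genes it was 0.57, and genes of the same libraries are not independent replicates. FARSA and VARS1, the valine enzyme, have transcripts of 60.3% and 62.6% GC and were at 1.07 and 0.77 in R213A 1, while NARS1 and TARS1 have 44.3% and 43.6% and were at -0.98 and -0.42. After the correction for gene length and GC content, 11 of the 12 reported ATF4 targets were above 0 in the mean of R213A 1 and 3, in place of 7, and the cytosolic median was 0.45 as before. Quantile normalization lowered that median to 0.13, and the median of the reported ATF4 targets to 0.21, where it was 0.57. For WT 1 minus control 1 rho was 0.21 across the members and 0.38 over all genes.

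**Figure D4:**
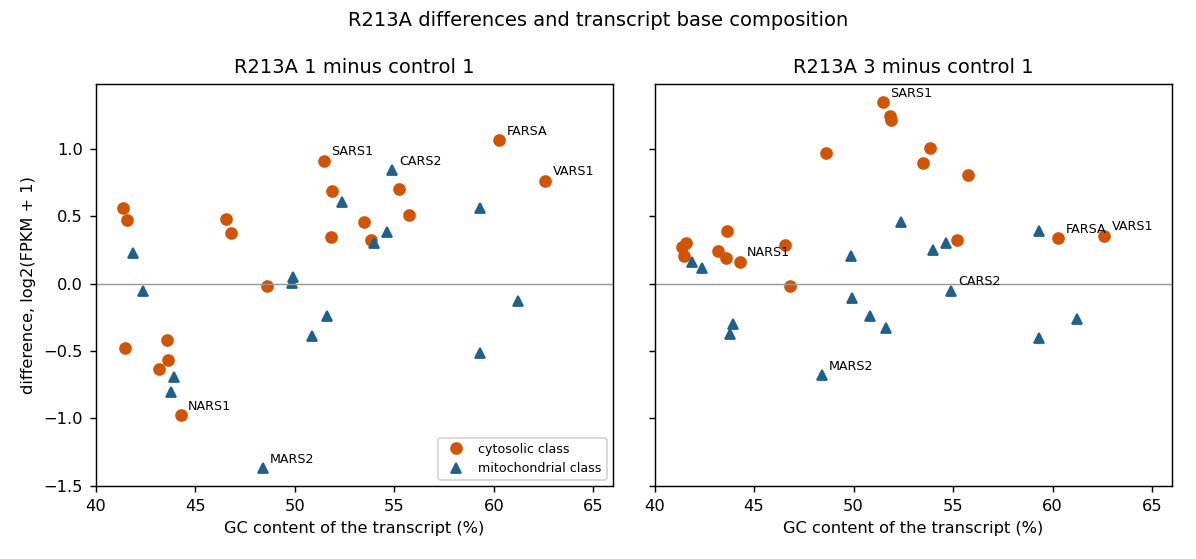
Difference from control 1 on the log2(FPKM + 1) scale against the GC content of the gene's transcript, for R213A 1 (left) and R213A 3 (right), with 1 point for each of 35 synthetase genes. NARS1, at 44.3% GC, is at -0.98 in R213A 1 and at 0.16 in R213A 3, and FARSA, at 60.3% GC, is at 1.07 and 0.34.

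In the 5-library table R213A 2 minus the mean of control 2 and 3 had medians of -0.06 in both classes, or 0.03 in both without control 2. There 0 of 37 members differed 2-fold, where 0.304% of all genes were higher and 0.223% lower by that much. The member furthest from 0 was AARS1 at -0.63, through control 2. The pooled cytosolic median of 0.16 rested on control 1, and without that library it was -0.15. The pooled mitochondrial median was -0.07, and the median of all genes -0.02.

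WT against R213A sets the wild-type protein beside the mutant. WARS1 was the member that stood out, in 1 library, and 0 of 37 members had an unadjusted p under 0.05, against 1.05% of all genes, or passed the adjusted threshold, against 0.0%. WARS1 was at 85.5, 36.0 and 38.8 FPKM in WT and 21.4, 35.1 and 40.7 FPKM in R213A. WT 1 was above all 3 R213A libraries, and WT 2 and WT 3 lay between R213A 2 and R213A 3. The pooled difference was 0.66 ± 0.42 (SE, limma adjusted p = 0.996), and it turned to -0.10 without WT 1.

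The next smallest p-values in this comparison went to genes lower in WT, all with an adjusted p of 0.996 in limma. QARS1, the glutamine enzyme of the complex, was at 40.4, 44.0 and 44.8 FPKM in WT and 75.3, 42.2 and 57.6 FPKM in R213A (-0.34 ± 0.23, SE), with 45.8, 49.2 and 41.8 FPKM in control. VARS1 was at 72.8, 42.7 and 45.9 FPKM in WT and 114, 43.3 and 85.7 FPKM in R213A (-0.25 ± 0.22), with 66.7, 49.7 and 41.7 FPKM in control. FARSA (-0.09 after quantile normalization) and FARSB differed by -0.29 ± 0.25 and -0.26 ± 0.21, with FARSA at 66.2, 29.7 and 36.0 FPKM and FARSB at 24.5, 12.1 and 11.6 FPKM in WT. In all 4 genes R213A 1 was the highest of the 6 libraries and R213A 3 the next, and the libraries of the 5-library table lay together.

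Within the 4-library table, WT 1 minus the mean of R213A 1 and 3 was above 0 in 11 of 12 reported ATF4 targets, with a median of 0.41, and in 1 of the other 8 cytosolic genes, with a median of -0.39 (47.1% of all genes were above 0). The mitochondrial median was -0.04, with 6 of 17 above 0, or 10 of 17 after the correction for gene length and GC content. Set against R213A 3 alone, the targets had 8 of 12 above 0 and a median of 0.11 (46.7% of all genes above 0), and against R213A 1 alone 12 of 12 and 0.73 (48.3%). In the 5-library table the median was 0.00 in both classes, and the 37 differences ran from -0.13 to 0.14.

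The difference between the tables was tested for each gene as an interaction of matrix and table in limma across all 11193 genes, with 3 residual degrees of freedom and the lone libraries assumed to vary like the others. For WT against control 0 of 37 members passed, where 1.12% of all genes did, and the smallest adjusted p of a member was 0.101, for CARS1 and SARS1. Their differences in the 4-library table exceeded those in the 5-library table by 1.45 ± 0.38 and 1.83 ± 0.48 (SE). At an unadjusted p under 0.05 there were 7 members (AARS1, CARS1, MARS1, SARS1, WARS1, FARS2 and IARS2), against 20.7% of all genes, a share near that of the members. For R213A against control the same count was 4 (CARS1, SARS1, FARS2 and MARS2, background 12.4%, smallest member adjusted p = 0.386 in limma) and for WT against R213A it was 1 (WARS1, background 7.25%, adjusted p = 0.659 in limma), with 0 adjusted in each.

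**Figure D5:**
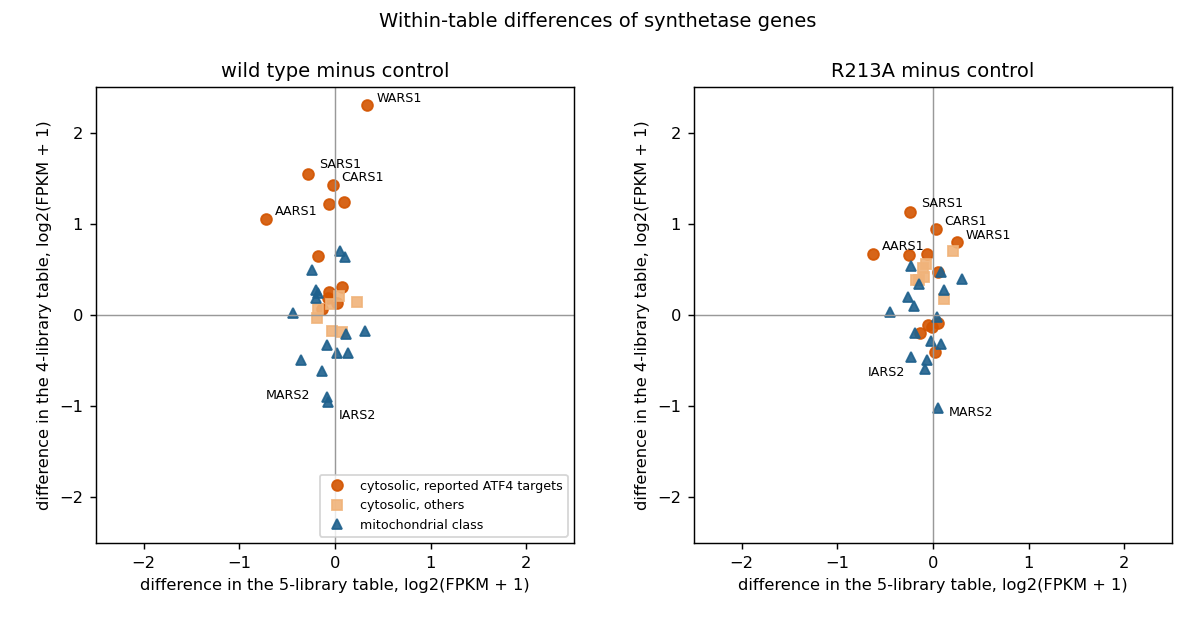
Difference of each of 35 synthetase genes in the 4-library table (vertical) against its difference in the 5-library table (horizontal), on the log2(FPKM + 1) scale, for WT minus control (left) and R213A minus control (right), which share the controls. The points spread from -0.96 to 2.30 vertically in the left panel and from -0.72 to 0.34 horizontally.

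A set of 4 libraries was chosen because they lay close to each other, so small ranges of the synthetases follow from that choice. Over WT 2, WT 3, R213A 2 and control 3 the range of a member was 0.13 on the log2 scale at the median and 0.36 at most, in FARS2, and 0 of 37 ranges reached 2-fold, against a median of 0.16 and 1.32% for all genes. The ranges of the 12 reported ATF4 targets were 0.05 to 0.14. IARS1, for example, was at 94.8 and 91.7 FPKM in WT 2 and 3, 91.7 FPKM in R213A 2 and 92.4 FPKM in control 3. With control 2, which completes the 5-library table, the median range of a member was 0.29 (0.36 over all genes) and the highest 1.39, in AARS1, the 1 range of 37 that reached 2-fold (5.99% of all genes did). Over the 4-library table, 11 of 37 ranges reached 2-fold, against 34.3% of all genes.

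Control 2 departed from these 4 libraries in a few synthetases. AARS1 was 2.61 times their median there, WARS2, for mitochondrial tryptophan, 1.98 times, AARS2 1.68 times, SARS2 1.61 times and SARS1 1.53 times. WARS1 was 0.644 times their median. AARS1 alone passed 2-fold (1 of 37, against 1.51% of all genes higher and 1.72% lower). AARS1 and AARS2, the alanine pair, were both high in control 2, and the tryptophan pair ran in opposite directions, with WARS1 over WARS2 at 4.21 in control 2 and 12.6 in control 3.

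Other genes of the pathway were described from lists that name its steps. Of 26 such genes tested, 0 passed in each comparison and 0 had an unadjusted p under 0.05 (limma, smallest adjusted p = 0.757, 0.690 and 0.996 for WT against control, R213A against control and WT against R213A). Of these lists, that of the sensors of uncharged transfer RNA and the ATF4 arm moved furthest between WT 1 and control 1. Stress of the endoplasmic reticulum also reaches ATF4, and charging of transfer RNA was not measured, so what set this arm moving was not tested. TRIB3, an ATF4 target that restrains it, was at 316, 60.1 and 67.8 FPKM in WT and 11.6, 63.6 and 61.6 FPKM in control. CHAC1, which degrades glutathione, was at 52.8, 19.3 and 21.3 FPKM in WT and 1.40, 11.9 and 21.7 FPKM in control. The high value is WT 1 and the low value control 1 in both, as in WARS1, SARS1 and CARS1.

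The other members of that list were split. DDIT3, SESN2 and ATF4 differed by 4.29, 3.91 and 1.30 between WT 1 and control 1, while the sensor kinase gene EIF2AK4 and its activator GCN1 were at -0.63 and -0.87. Over the 7 tested genes the median was 3.91 between WT 1 and control 1 but -0.10 in the 5-library table, and for R213A minus control it was 1.26 and -0.07. ASNS, asparagine synthetase, a classical ATF4 target, was below the filter, with 0.569, 0.838 and 0.773 FPKM in WT, 0.0662, 0.527 and 0.378 FPKM in R213A and 0.204, 1.19 and 0.589 FPKM in control.

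The scaffolds of the multisynthetase complex, AIMP1, AIMP2 and EEF1E1, were at 0.02, 0.22 and 0.23 for WT 1 minus control 1, near the complex median of 0.14. The elongation factors that carry charged transfer RNA, EEF1A1 in the cytosol and TUFM in mitochondria, were at 0.48 and 0.02 for WT 1, and at 0.36 and 0.74 for the mean of R213A 1 and 3. XPOT, which exports transfer RNA from the nucleus, was at 54.3, 106 and 109 FPKM in WT, 21.0, 110 and 46.3 FPKM in R213A and 42.0, 129 and 107 FPKM in control. Its level separated the tables and not the matrices. TARS3, a threonine enzyme related to TARS1, had a mean of 1.58 FPKM against 128 FPKM for TARS1.

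Overlapping annotation limits some of these values. Of the 37 members 29 overlap another annotated gene, 23 of them on the opposite strand, and 11 overlap a protein-coding gene with a mean of at least 1 FPKM. SARS2 shares 349 bases with MRPS12, a mitochondrial ribosomal protein gene at a mean of 169 FPKM beside 1.14 FPKM for SARS2, and how such reads were assigned is not given in the sources used here. HARS1 and HARS2 share 437 bases on opposite strands, KARS1 shares 858 bases with TERF2IP, and HARS2 shares 639 bases on its own strand with ZMAT2. The annotated span of YARS2 shares 18161 bases with DNM1L on the opposite strand, at means of 30.6 FPKM for YARS2 and 22.4 FPKM for DNM1L.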

How the data were processed

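Total RNA was isolated with TRIzol and made into libraries by the Illumina TruSeq stranded mRNA protocol, per the labels' protocols. The build hg38 and the converter bcl2fastq come from the submitters' processing notes. The aligner, the counting program, its strand setting and the annotation were not given in the sources used here.

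The authors deposited FPKM per gene in 2 tables of 58735 Ensembl genes, and no column was left unused. From FPKM and gene length, whole reads came back for 100% of values above 0, within 0.01 reads. Older gene names were replaced by current symbols by Ensembl identifier (58207 identifiers matched, with a new symbol for 18 members). The counting error given for a read count covers counting only.

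Levels were compared as log2(FPKM + 1) with limma 3.58.1 in R 4.3.3 for genes whose mean reached 1 FPKM. On this scale the differences of low genes are understated. All 9 libraries entered 1 fit with group and deposited table as terms and a mean-variance trend, with 5 residual degrees of freedom and Benjamini-Hochberg adjustment over 11193 genes at 0.05. No label says that replicates were separate cultures. The p-values therefore reflect only how these libraries vary, and that may be technical. Differences within a table are means of log2 values by group. The procedure was tested on simulated data. Promoter windows came from RefSeq, and GC content from GENCODE transcripts.

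Values in every library are given for the 5 members of smallest p per comparison, the 6 furthest apart between WT 1 and control 1, the 4 furthest apart between R213A and control in the 4-library table, and the 2 highest and lowest of each class. Other values were chosen after they were seen. The counts and medians cover all 37 members, but 2 of them are not reported here by name. The members, the lists of reported ATF4 targets, complex members and other pathway genes, and the tests were chosen with earlier results of these data known. Alternatives changed the pseudocount (0.1, 0.5), the filter (none, 5 FPKM), the scaling, the table term, a replicate block, the groups in the fit, the trend, limma-voom on recovered reads, and each library in turn. Chosen after seeing the data were the correction for gene length and GC content, the other scalings of the 4-library counts, the 5-library medians without control 2 and the interaction of matrix and table.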

Additional observations from a re-analysis of the deposited data

How the results depend on the processing

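Of 647 values recomputed under 21 settings, 638 were marked as unchanged. For a named gene this meant the same direction and side of the threshold, and for a class median a shift within the replicate spread. That spread was 0.24 for the cytosolic and 0.10 for the mitochondrial class. Each main class median was smaller than its spread, so a median could change sign and still be marked as unchanged. A count had to stay equal or within a set ratio of the main count. No named gene passed in the main fit, so it could lose the mark only by reversing or by passing. In the 3 comparisons 0 members passed under any setting, with adjusted p from limma of 0.364 to 1.00, 0.442 to 1.00 and 0.659 to 1.00 (WT against control, R213A against control, WT against R213A). Among all genes 1 passed in each comparison with control when no filter was used. The difference of WARS1 between WT and R213A turned to -0.10 without WT 1, and over all left-out libraries it ran from -0.10 to 0.85. Over left-out libraries the cytosolic median ran from 0.00 to 0.13 for WT against control, from -0.15 to 0.27 for R213A against control and from -0.12 to 0.19 for WT against R213A, and the mitochondrial median from -0.16 to -0.02, -0.15 to -0.02 and -0.06 to 0.01. The mitochondrial median of WT against R213A was 0.11 with limma-voom, where it was 0.00. In the 4-library table the count of cytosolic genes 2-fold higher in R213A than in control was 2 with a pseudocount of 0.1 and 0 after quantile normalization, where it was 1. The correction for gene length and GC content gave 11 reported ATF4 targets above 0 in R213A, where it was 7, and 10 mitochondrial members above 0 for WT 1 against R213A, where it was 6. For the changes that no construction of a setting explains, the cause was not tested.

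Whether replicate numbers pair the libraries could not be decided. Deviations from the group means were correlated between libraries, with the table left in, so the correlations followed the table. Libraries with the same number had 0.33 to 0.84 within a table. For R213A 3 with WT 3 and with control 3, which are in the other table, they were -0.70 and -0.65. WT 1 and R213A 3, with different numbers in the same table, had 0.74. With the number as a block beside the table term, 0 members passed in each comparison, and the cytosolic medians were 0.05, 0.04 and 0.25 and the mitochondrial medians -0.07, -0.11 and 0.03.

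Depth limits mainly SARS2, PARS2 and MARS2, with lowest counts of 51, 52 and 64 reads. The number of libraries limits all members: 95% intervals of a member reached about 0.49, 0.51 and 0.51 to either side at the median, and the 4-library differences of WT rest on 1 library per group.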
